A study of Mus musculus with 18 samples.

Results

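Solute carriers are the membrane proteins, named SLC with a family number, that move nutrients, ions, metals and metabolites across the plasma membrane and the membranes of organelles. The members described here are all single gene symbols that begin with Slc and a digit and that have at least 1 row, for any pair of the 6 groups, in the authors' table of significant differences. There were 111 such genes among 5401 listed genes, with 147 transcript or locus entries from 38 SLC families. Of these genes, 93 had a row in at least 1 of the 7 comparisons below and 18 only in other pairs of groups. The genes were placed by family number into 13 substrate classes, of which mitochondrial carriers (19 genes), amino acids and peptides (16) and nucleotide sugars and other Golgi or endoplasmic reticulum substrates (14) were the largest.

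Carriers of 1 family share sequence and usually a transport mechanism, but their substrates and membranes can differ. In macrophages, transporters set the supply of glucose, arginine and glutamine, the export of lactate, and the removal of iron and manganese from the phagosome. The family 25 carriers connect the cytosol with the mitochondrial matrix, and family 35 carriers bring activated sugars into the Golgi for glycosylation. The values below are transcript levels, which do not report transport activity.

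The samples were RAW264.7 cells, a mouse macrophage-like line, in 6 groups of 3. Parental cells were left untreated or received doxycycline at 100 ng/mL. The other 4 groups, called construct cells here, had been transduced with the lentiviral vector pINDUCER20-mCITED1 (p2080 in the labels), from which doxycycline induces the mouse transcriptional co-regulator CITED1, a protein that does not bind DNA by itself. Construct cells were untreated, or received doxycycline, interferon-gamma at 200 U/mL, or both, and no parental group received interferon-gamma. Under interferon-gamma, an effect of CITED1 therefore cannot be told apart from one of doxycycline itself. The labels do not say whether the construct cells were a clone or a pool, how long each treatment lasted, or whether the samples of a group were separate cultures. Interferon-gamma is a cytokine that activates macrophages.

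The authors' table gives 1 fold change and 1 total FPKM per pair of groups and no values per sample, so no SD, no depth and no test of a difference between differences can be attached to any value here. Every listed row has a fold of at least 2 and an adjusted p (q) of at most 0.05, while the absence of a row does not show that a gene stayed the same. Expression is given as FPKM, a fragment count scaled to transcript length and library size, rebuilt for each group from the total and the fold. Of 10 macrophage markers 4 are listed, and they include Spi1, the myeloid transcription factor gene, at 157 FPKM in untreated parental cells, and Adgre1, the gene of F4/80, at 28.6 FPKM there and 12.2 FPKM in untreated construct cells. None of the T cell, B cell, neutrophil, fibroblast or epithelial markers examined is listed. An unlisted marker may still be expressed at similar levels in all groups, so this says nothing on whether such cells were present. Since fewer cells of a kind and less RNA per cell give the same reading in bulk RNA, the 2 cannot be told apart for any value below.

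Interferon-gamma without the inducer moved solute carriers in both directions, and the classes differed in how their calls split. All called metal carriers were higher, as were 6 of 7 called carriers of inorganic cations and 7 of 9 called mitochondrial carriers, whereas 6 of 8 called amino acid carriers were lower. In all, 33 members (29.7%) were higher, against 25.8% of all listed genes, and 21 (18.9%) were lower, against 24.3%. In either direction 50.2% of listed genes were called, so the overall shares of members lay near those of listed genes in general. Counts by class and by list below, each of few genes, are to be read against these shares. The median fold among the higher members was 2.39 in the authors' deposited table, and 26 of the 33 were under 3-fold. If log2 ratios are shifted by 0.65 so that listed entries have a median of 0, 25.0% rather than 61.1% of the member calls are higher. For all genes the shares are 34% rather than 51.5%. That median covers only entries with a 2-fold row in some pair, so it does not measure an offset between the groups. Only listed rows could be shifted, so higher rows could only be lost and no lower row could be added. The direction of this change was therefore fixed in advance. The bars of called genes by class show this split beside the other comparisons.

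**Figure D1:**
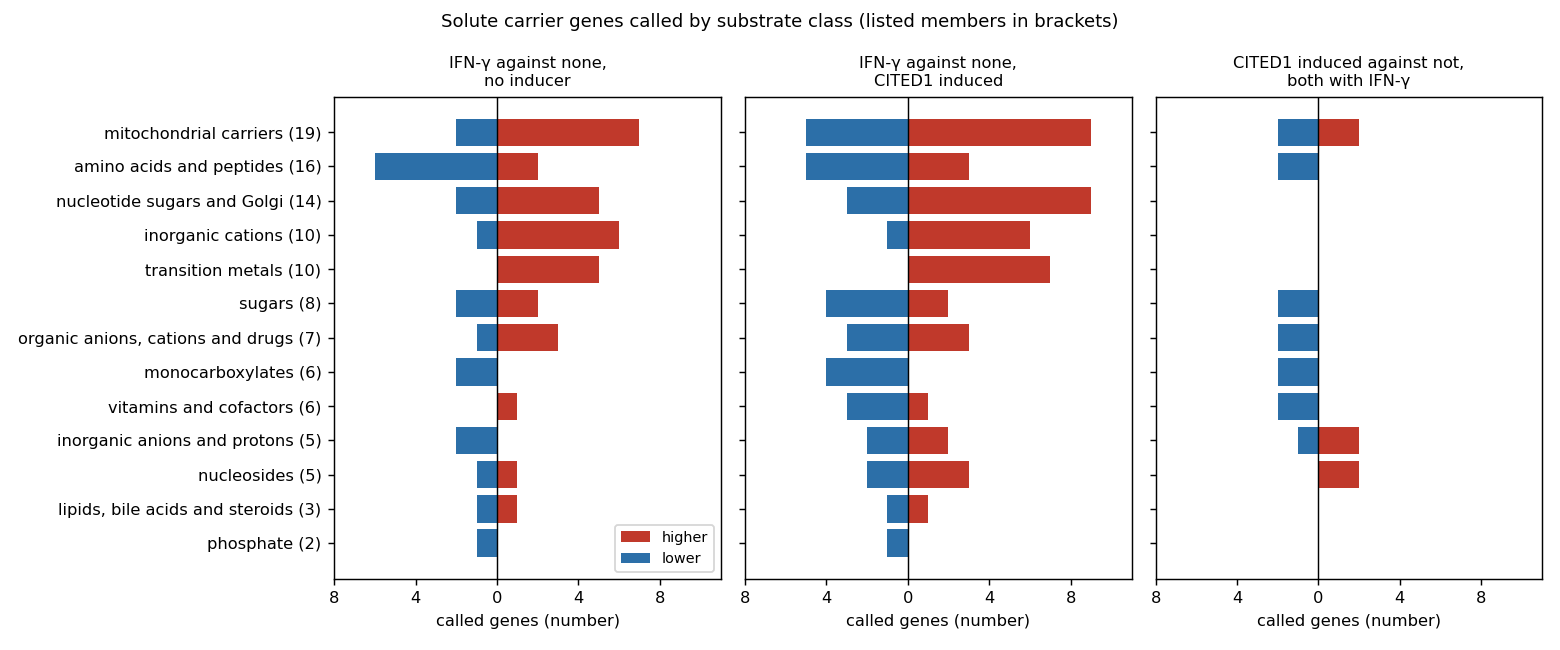
Number of solute carrier genes called higher (red, to the right) or lower (blue, to the left) in each substrate class, with the number of listed members in brackets, for 3 comparisons of construct cells. Metal carriers have 5 and 7 higher calls and 0 lower calls in the interferon-gamma comparisons, and monocarboxylate carriers have 2 and 4 lower calls and 0 higher calls.

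Among the metal carriers, Slc39a2, a zinc importer of the ZIP family, had the largest relative change. Its rebuilt FPKM was 0.988 and 0.993 in parental cells without and with doxycycline, 0.523 and 0.595 in construct cells without and with doxycycline, 4.83 with interferon-gamma and 7.34 with interferon-gamma and doxycycline. Both stimulated groups were thus well above the other 4. Slc40a1 encodes ferroportin, the iron exporter of the plasma membrane, and went from 10.6 to 47.3 FPKM with interferon-gamma alone and from 14.2 to 37.5 in cells with induced CITED1. Slc11a1 (NRAMP1), the gene of a metal transporter of the phagosome, went from 45.8 to 96.2 FPKM without inducer and from 43.7 to 170 with it. Which allele of it these cells carry and whether they make a working protein were not examined, so no function can be read from this rise. The copper transporter gene Slc31a2 rose from 17.2 to 37.2 FPKM and from 18.5 to 54.5. Zinc efflux and zinc import genes were both among the calls. Slc30a4, a vesicular zinc exporter, rose from 8.32 to 18.2 FPKM without inducer, and its level under both treatments is not known. Slc30a1, the plasma membrane zinc exporter, rose from 7.18 to 21.0 FPKM in cells with induced CITED1, as did the zinc importer Slc39a1 (75.1 to 191) and the ZIP family gene Slc39a13 (6.54 to 19.7).

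Slc30a5, a zinc transporter of the secretory pathway, is listed only in another pair, and it was lower with interferon-gamma alone (27.6 FPKM) than with doxycycline alone (55.5 FPKM), a pair that differs in both treatments. Of the other genes of metal handling, 3 of 7 genes on a zinc and copper list are listed and all 3 rose without inducer: the metallothionein gene Mt2 from 365 to 2160 FPKM, the copper pump gene Atp7a from 4.91 to 16.8 and the metal-responsive transcription factor gene Mtf1 from 2.96 to 6.65. On the iron list of 14 genes, 5 are listed, and 1 rose and 3 fell without inducer. The heme oxygenase gene Hmox1 went from 123 to 289 FPKM, while the transferrin gene Trf fell from 3.37 to 0.271, the ferric reductase gene Steap3 from 20.0 to 3.13 and the ferritin-degrading adaptor gene Ncoa4 from 20.0 to 9.42.

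Of 16 carriers of amino acids and peptides, 6 were lower, 2 were higher and 8 had no row without inducer, and with it 5 were lower, 3 higher, 1 in both directions and 7 without a row. Among all listed genes 24.3% were lower and 25.8% higher without inducer, and 33.8% each with it. The SNAT transporters Slc38a1 and Slc38a2, which bring glutamine and other neutral amino acids into cells with sodium, went from 22.6 to 8.29 and from 106 to 40.4 FPKM without inducer. Slc7a6, a light subunit that exchanges cationic for neutral amino acids, went from 19.5 to 7.63 FPKM, and from 21.0 to 7.08 in cells with induced CITED1. Slc6a8, the creatine transporter, fell from 15.1 to 5.72 FPKM and from 13.7 to 5.15. Slc6a12, which takes up the osmolyte betaine and GABA, fell from 45.4 to 12.2 FPKM and from 40.9 to 14.6. The myo-inositol transporter gene Slc5a3, counted among the sugar carriers and likewise a carrier of an osmolyte, was at 5.58 and 6.15 FPKM in parental cells, 9.91 and 8.17 in unstimulated construct cells, 1.41 with interferon-gamma and 0.766 with both treatments. Its entry shares an exon with Mrps6 on the same strand in GENCODE M21, so its reads cannot be fully told from those of that gene.

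Among the higher ones, Slc15a3, a peptide and histidine transporter of endosomes and lysosomes, was at 26.4 and 24.9 FPKM in parental cells, 15.9 and 14.9 in unstimulated construct cells, 47.8 with interferon-gamma and 89 with both treatments. Slc1a4 (ASCT1), an exchanger of neutral amino acids such as serine, rose from 1.82 to 5.16 FPKM without inducer. In cells with induced CITED1, Slc7a8 (LAT2), a light subunit for large neutral amino acids, rose from 11.5 to 35.5 FPKM, and the lysosomal exporter gene of cationic amino acids Slc66a1 from 2.70 to 6.05. Slc36a4, a proton-coupled family member, fell from 15 to 7.51 FPKM there. A list of genes linked to Slc15a3 and Slc15a4 through endosomal and muropeptide sensing had 5 of its 9 listed members higher and 1 lower without inducer, among them Tlr9 (5.44 to 45.9 FPKM), Sting1 (13.4 to 93.5) and Ripk2 (8.62 to 52.4), with Tlr7 lower (41.3 to 15.9).

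On a list of 16 genes of the amino acid stress response, 10 are listed, of which 4 rose and 2 fell without inducer. Ddit3 (CHOP) went from 9.51 to 40.3 FPKM and Trib3 from 5.73 to 19.9, while the serine synthesis gene Phgdh fell from 126 to 44.5 and the mitochondrial serine hydroxymethyltransferase gene Shmt2 from 117 to 41.4. For arginine metabolism 3 of 6 listed genes were higher and 0 lower, led by Ass1, the argininosuccinate synthase gene that regenerates arginine from citrulline, at 1.25 and 207 FPKM. The plasma membrane arginine carrier gene Slc7a1 (CAT1) is listed only for other pairs. It was at 45.1 and 44.7 FPKM in parental cells without and with doxycycline and at 21.5 with both treatments in construct cells, so line and treatment differ together there. The glutamine carrier gene Slc1a5 (ASCT2) was at 95.0 FPKM in untreated construct cells and 45.9 with both treatments, and it is listed only for pairs in which more than 1 factor differs.

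Hexose carriers went different ways. Slc2a1 (GLUT1), the basal glucose importer, rose from 119 to 264 FPKM with interferon-gamma, and its level under both treatments is not known. Slc2a3 (GLUT3), a high-affinity glucose importer, fell from 11.8 to 5.55 FPKM without inducer and from 10.9 to 2.29 with it. Slc2a6 (GLUT6), a lysosomal family member, rose from 63.0 to 155 FPKM in cells with induced CITED1. Slc37a1, a sugar phosphate exchanger of the endoplasmic reticulum, was between 4.10 and 5.00 FPKM in the 4 unstimulated groups, at 18.1 with interferon-gamma and at 20.3 with both treatments. Of 17 genes on a glycolysis and lactate list, only Hk1 (56.7 to 143 FPKM) and the transcription factor gene Hif1a (27.4 to 93.8) are listed. Both rose without inducer, and with induced CITED1 only Hif1a was called, again higher.

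Monocarboxylate carriers of family 16, which include the lactate and pyruvate transporters, were called only lower in the interferon-gamma comparisons, with 2 of 6 members lower without inducer and 4 of 6 with it. Of all listed genes 24.3% were lower without inducer and 33.8% with it, so 6 members are too few to set the class apart. Slc16a7 (MCT2) fell from 4.66 to 1.62 FPKM without inducer and from 3.88 to 0.810 with it. Slc16a1 (MCT1), the widely expressed lactate carrier, was at 64.2 FPKM untreated and 33.3 with interferon-gamma, which is under the table's limit, and fell from 59.0 to 25.1 with induced CITED1. Slc16a6 fell from 12 to 3.35 FPKM there. The exons of its entry overlap those of Amz2 on the opposite strand, and whether the authors' counting used strand is not given in the sources used here. Slc16a10, a carrier of aromatic amino acids, and Slc16a13 are listed only against parental cells, at 42.7 FPKM in untreated parental cells and 18 in construct cells with interferon-gamma for the former and at 9.88 and 4.41 for the latter.

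Of 19 mitochondrial carriers, 7 were called higher and 2 lower without inducer, against 25.8% and 24.3% of all listed genes. Slc25a12, an aspartate and glutamate carrier of the malate-aspartate shuttle, rose from 9.04 to 22.8 FPKM in an entry annotated as a processed transcript. Its protein-coding entry, at 7.31 FPKM in untreated construct cells, and its largest entry, at 24.3, had no row in this comparison. Slc25a20, the carnitine and acylcarnitine carrier that feeds fatty acid oxidation, rose from 6.48 to 13.8 FPKM, and Slc25a38, a glycine carrier needed for heme synthesis, from 18 to 42.9. Slc25a37 (mitoferrin 1), which brings iron into mitochondria, rose from 5.71 to 17.4 FPKM in an entry annotated as a retained intron. The ATP-magnesium and phosphate carrier gene Slc25a25 rose from 9.83 to 21.7 FPKM, and the glutamate carrier gene Slc25a22 from 7.85 to 16.9. Slc25a15, the ornithine carrier of the urea cycle, fell from 5.09 to 1.57 FPKM and the mitochondrial folate carrier gene Slc25a32 from 3.77 to 1.41. Of the 13 genes on a list of itaconate and mitochondrial metabolism 5 are listed, with 0 higher and 3 lower without inducer: Idh1 (85.4 to 34.9 FPKM), Idh2 (65.5 to 16.7) and Idh3a (38.5 to 17.2), genes of isocitrate dehydrogenases.

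Of 14 nucleotide sugar and related carriers, 5 were called higher and 2 lower without inducer. The shares of all listed genes were 25.8% and 24.3%, and 33.8% each with induced CITED1. Slc35f5 rose from 7.61 to 21.4 FPKM and Slc35d2, for UDP-activated sugars, from 1.36 to 3.92, while Slc35e4 fell from 18.6 to 6.51 and Slc35g1 from 7.21 to 3.52. Slc35b3, which carries the sulfate donor PAPS, rose from 2.20 to 4.41 FPKM. With induced CITED1 the class had 9 higher and 3 lower calls, which added the UDP-galactose carrier gene Slc35a2 (2.90 to 8.76 FPKM), the acetyl-CoA carrier gene Slc33a1 (21.5 to 70.3) and Slc35b1, an ATP and ADP exchanger of the endoplasmic reticulum (43.3 to 90.1), on the higher side and the GDP-fucose carrier gene Slc35c1 (23.4 to 9.30) on the lower side. In untreated construct cells Slc33a1 and Slc35c1 were at 24.5 and 22.6 FPKM, and with interferon-gamma alone at 48.2 and 12.1, just short of the table's 2-fold limit.

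Of 10 carriers of inorganic cations, 6 were higher, 1 was lower and 3 had no row for interferon-gamma without inducer. The shares among all listed genes were 25.8% higher and 24.3% lower. The potassium-chloride cotransporter genes Slc12a4 and Slc12a7 rose from 12.4 to 25.2 and from 11.4 to 25.4 FPKM without inducer. Slc12a9 of the same family rose from 12.9 to 38.4 FPKM, and the magnesium transporter genes Slc41a1 and Slc41a2 from 4.82 to 12.1 and from 13.6 to 33.5. Slc24a5, a potassium-dependent sodium-calcium exchanger known from melanosomes, fell from 75.1 to 11.1 FPKM, and was at 41.7 and 44 in parental cells. Its entry overlaps 714 bases of an exon of Myef2 on the opposite strand, so this level is uncertain. Slc8b1, the mitochondrial sodium-calcium exchanger, rose from 12 to 33.7 FPKM with induced CITED1.

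The largest relative rise of any member was in Slc17a6 (VGLUT2), a vesicular glutamate transporter known from neurons. It was between 0.0593 and 0.110 FPKM in the 4 unstimulated groups, 5.28 with interferon-gamma and 6.35 with both treatments, so the stimulated groups lay far above the others while still low in absolute terms. Slc17a7 (VGLUT1) rose from 0.122 to 1.02 FPKM with induced CITED1. Slc44a1, a choline transporter, fell from 55.2 to 26.1 FPKM without inducer and from 58.3 to 19.4 with it. Slc23a2, the ascorbate importer, rose from 29.4 to 79.8 FPKM and from 25.9 to 119. Slc29a1 (ENT1), the equilibrative nucleoside transporter, fell from 27.7 to 9.30 FPKM and from 26.7 to 7.13, and its other 2 entries fell as well in both comparisons. Beside it, 2 of 9 listed nucleoside metabolism genes rose and 1 fell without inducer: the uridine phosphorylase gene Upp1 went from 0.180 to 85.5 FPKM and the purine nucleoside phosphorylase gene Pnp from 7.96 to 43, while the thymidine kinase gene Tk1 went from 59.2 to 13.5. Slc27a4, a fatty acid transport protein gene, rose from 9.37 to 22.4 FPKM, and Slc27a1 of the same family fell from 78.4 to 29.2 in an entry annotated as a retained intron. The phosphate importer gene Slc20a2 fell from 8.27 to 3.24 FPKM.

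**Figure D2:**
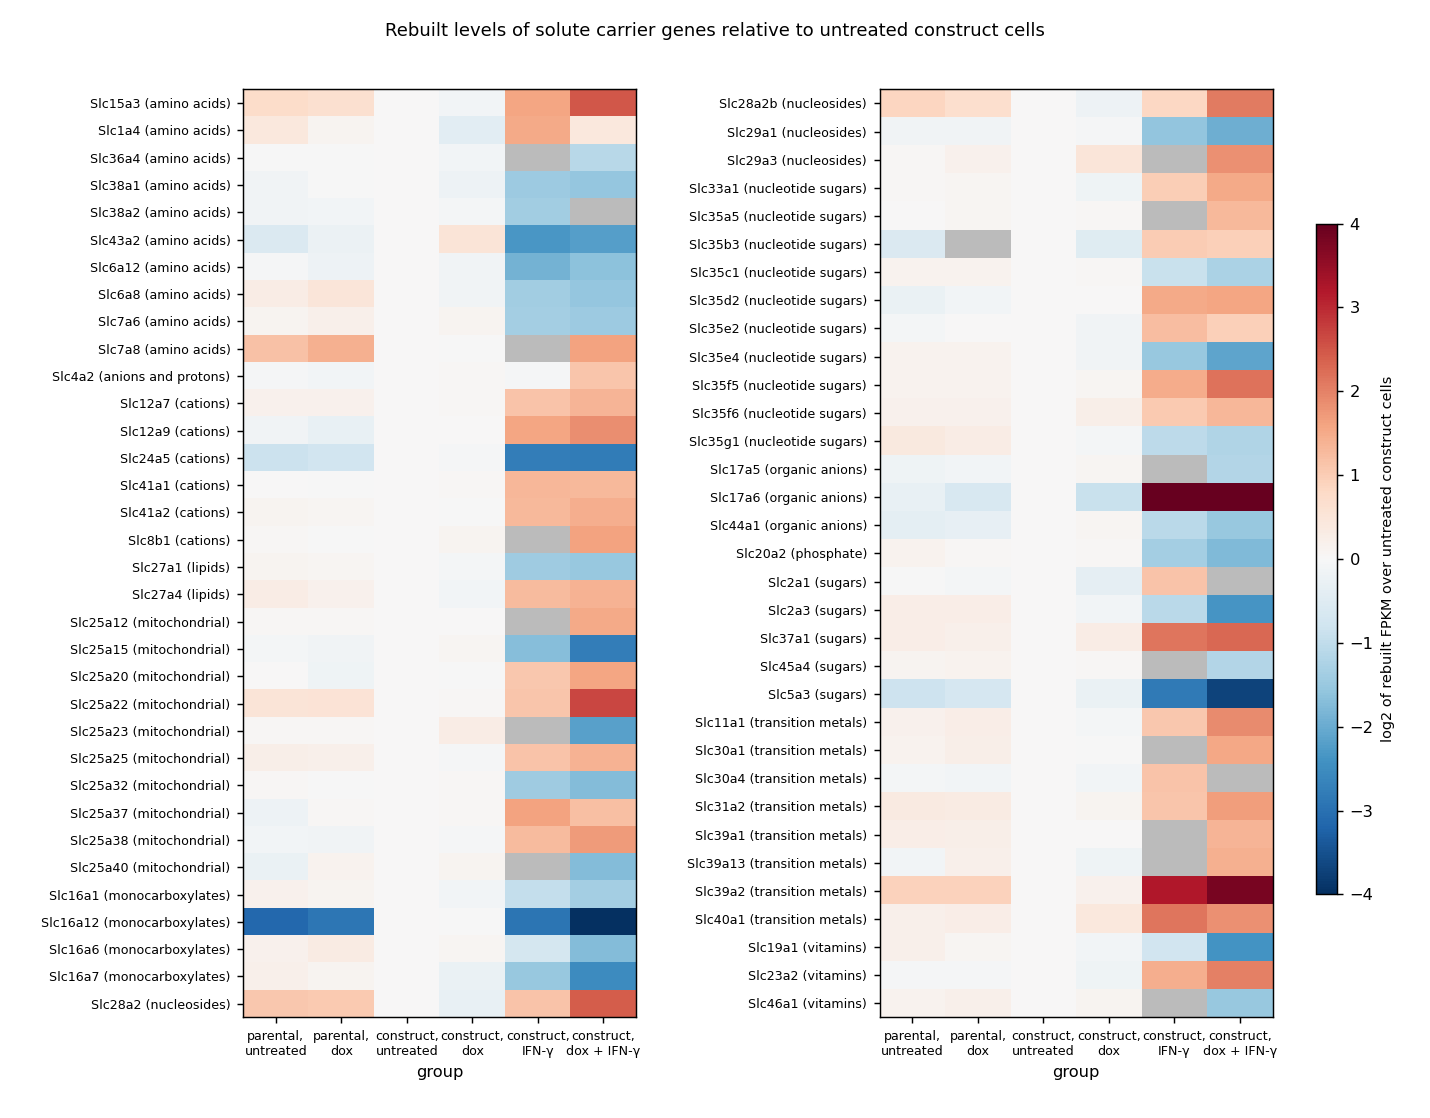
Log2 ratio of the rebuilt FPKM in each of the 6 groups to that in untreated construct cells, for the 67 member genes with levels in at least 5 groups and at least 1 FPKM in 1 of them, with the substrate class in brackets. Grey cells have no rebuilt level, and the colours stop at 4, which Slc17a6 exceeds in both stimulated groups. The 2 stimulated groups stand apart from the 4 unstimulated ones, and the unstimulated construct groups are close to each other.

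In cells with induced CITED1, interferon-gamma gave 46 higher members (41.4%, against 33.8% of all listed genes), 34 lower members (30.6%, against 33.8%) and 1 with entries in both directions. In either direction 67.8% of listed genes were called. This comparison shares no group with the one without inducer. Of the 33 members higher without inducer 27 were also higher with it (81.8% of the first list and 58.7% of the second), and 18 of the 21 lower members were lower again (85.7% and 52.9%), with 0 members called in opposite directions. For all genes the corresponding shares of the first list were 82.5% for higher and 81.5% for lower calls. Calls were matched by gene symbol, and for Slc22a15 and Slc25a12 no entry was called in both comparisons. With levels shifted by 1.02 on the log2 scale to a median of 0, 31.4% rather than 57.5% of the member calls are higher. For all genes the shares are 28.2% rather than 49.9%. Here too the median is that of listed entries only and does not measure an offset between the groups. Again only listed rows were shifted, so higher rows could only be lost and no lower row could be added.

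Further members were called with interferon-gamma only in cells with induced CITED1, which does not show that they differ between the comparisons. Among them were 3 vitamin carriers that fell: the thiamine carrier gene Slc19a2 (14.1 to 7.07 FPKM), the intestinal-type folate carrier gene Slc46a1 (3.02 to 0.976) and Slc19a1 (22.9 to 4.68). The mitochondrial carrier gene Slc25a23 fell from 7.28 to 1.33 FPKM and Slc25a40 from 2.33 to 0.640, while Slc25a24, an ATP-magnesium and phosphate carrier like Slc25a25, rose from 34.9 to 76.9. Of the equilibrative nucleoside transporters, Slc29a3, of lysosomes, rose from 6.05 to 15.4 FPKM and Slc29a2 fell from 1.57 to 0.353. The lysosomal sialic acid exporter gene Slc17a5 fell from 17.9 to 7.47 FPKM and the sugar carrier gene Slc45a4 from 12 to 5.18.

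For 68 entries of 57 members, levels in all 4 construct groups could be rebuilt, which allows the interferon-gamma ratios to be set side by side. The ratio was further from 0 in induced cells for 54 of them (79.4%), a share close to the 77.5% among all 3296 such entries. The median absolute log2 ratio was 1.34 without and 1.74 with induced CITED1 for solute carriers, and 1.42 and 1.79 for all entries. Larger ratios in cells with doxycycline and induced CITED1 were therefore shared with the listed genes as a whole. Between untreated and doxycycline-treated construct cells the same entries had a median absolute log2 ratio of 0.11, and 63 of the 68 were under 0.5. All entries were alike in this, with a median of 0.13 and 3046 of 3296 under 0.5.

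**Figure D3:**
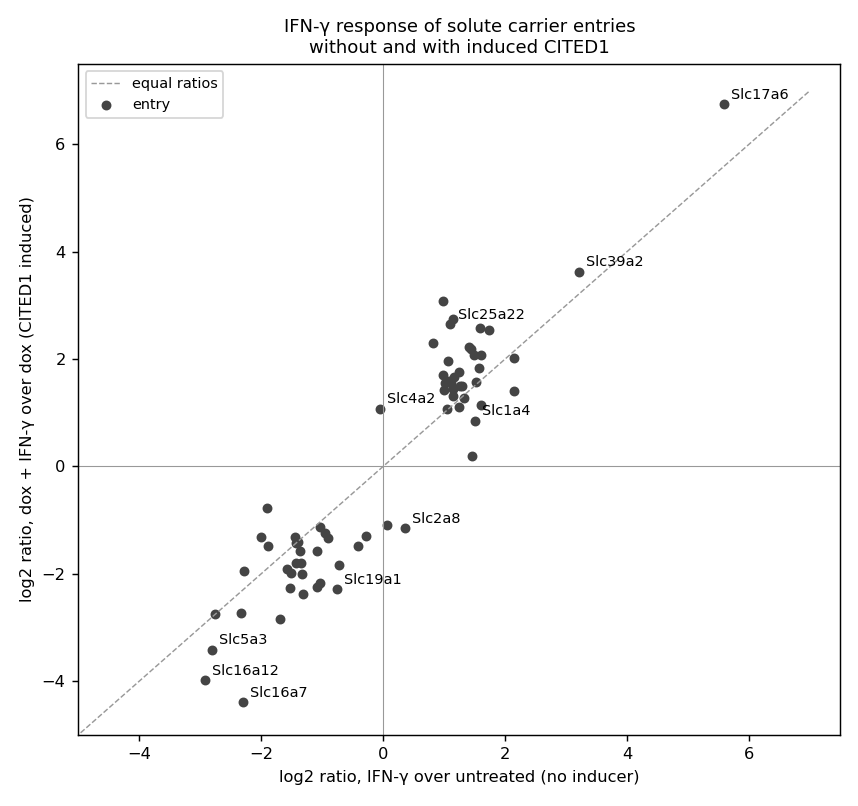
Log2 ratio of rebuilt FPKM with interferon-gamma to that without it, in construct cells without inducer (horizontal axis) and with induced CITED1 (vertical axis), for the 68 entries with levels in all 4 construct groups. The dashed line marks equal ratios, and 54 of the entries are further from 0 on the vertical than on the horizontal axis. Slc4a2 and Slc2a8 sit near 0 on the horizontal axis and away from 0 on the vertical one.

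With both groups stimulated, doxycycline to induce CITED1 was followed by 6 higher members (5.41%, against 6.87% of all listed genes) and 13 lower members (11.7%, against 6.37%). No parental cells received both treatments, so CITED1 and doxycycline cannot be told apart in these calls. In either direction 13.2% of listed genes were called. Adding 1 FPKM to each level left 3 higher and 3 lower members with a 2-fold difference. The higher genes were 2 carriers each of nucleosides, of inorganic anions and protons, and of mitochondria. The lower ones were 2 each of the monocarboxylate, sugar, vitamin, amino acid, mitochondrial and organic ion carriers, and 1 of inorganic anions and protons. Mitochondrial and inorganic anion carriers thus went both ways. The folds were small, with a median of 2.67 for the higher and 2.12 for the lower members in the authors' deposited table.

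Slc25a22 had the largest rise in deposited fold among members of at least 1 FPKM. It encodes a carrier that brings glutamate with protons into mitochondria. Its main entry, ENSMUST00000106007, was at 11.3 and 11.4 FPKM in parental cells, 7.85 and 8.09 in unstimulated construct cells, 16.9 with interferon-gamma and 50.6 with both treatments. A separate entry, ENSMUST00000138865, was at 6.00 FPKM with interferon-gamma and 22.9 with both treatments, and at 1.82 in parental cells with doxycycline. Both entries were therefore highest with both treatments. The authors' deposited table gives the main entry a fold of 3 between the stimulated groups, at its smallest q of 3.9e-04. That q is shared by 71.8% of the rows for the 6 groups.

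Slc28a2 (CNT2), which takes up purine nucleosides with sodium, was at 4.05 and 3.97 FPKM in parental cells, 1.93 and 1.56 in unstimulated construct cells, 4.26 with interferon-gamma and 10.4 with both treatments. Its neighbour and near copy Slc28a2b was at 0.981 and 0.861 FPKM in parental cells, 0.546 and 0.470 in unstimulated construct cells, 0.959 with interferon-gamma and 2.30 with both treatments. Both were lowest in unstimulated construct cells and highest with both treatments. Reads of these genes may be shared, so the split between them is uncertain. The anion exchanger gene Slc4a2 (AE2), which trades chloride for bicarbonate, was between 16.3 and 18.2 FPKM in 5 groups, including that with interferon-gamma alone, and at 38.2 with both treatments. Its entry overlaps an exon of Fastk on the opposite strand. Slc4a11 of the same family went from 1.10 FPKM with interferon-gamma to 3.16 with both, and was at 0.0798 with doxycycline alone. Slc25a54, from a locus entry without transcript identifier, stayed under 1 FPKM in each of the 5 groups with a level.

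Among the lower genes, Slc19a1, the reduced folate carrier, had levels of 24.6 and 22.9 FPKM in unstimulated construct cells, 14.6 with interferon-gamma and 4.68 with both treatments, and parental cells had 28.4 and 26.3. The hexose transporter gene Slc2a8 (GLUT8) was at 6.01 and 5.51 FPKM in unstimulated construct cells, 7.72 with interferon-gamma and 2.48 with both. Slc2a3 went from 5.55 FPKM with interferon-gamma to 2.29 with both. Slc16a6 and Slc16a7 went from 6.85 to 3.35 and from 1.62 to 0.810 FPKM. For these genes the group with both treatments had the lowest of the rebuilt levels in construct cells.

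Slc25a15 went from 1.57 to 0.748 FPKM and Slc25a30, a further mitochondrial carrier gene that has no level in the unstimulated groups, from 22.7 to 9.91. The vesicular nucleotide carrier gene Slc17a9 fell from 2.73 to 1.36 FPKM, the sodium-proton exchanger gene Slc9a5 from 1.44 to 0.679 and Slc49a4, a lysosomal member, from 1.09 to 0.533. A different pattern was seen for Slc1a4 and the zwitterion carrier gene Slc22a4 (OCTN1). Slc1a4 was at 1.82 FPKM untreated, 1.36 with doxycycline, 5.16 with interferon-gamma and 2.46 with both treatments, and Slc22a4 at 0.258, 0.196, 0.704 and 0.225. In both, interferon-gamma alone gave the highest of these levels. The level with both treatments lay between those of unstimulated construct cells for Slc22a4 and above them for Slc1a4.

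**Figure D4:**
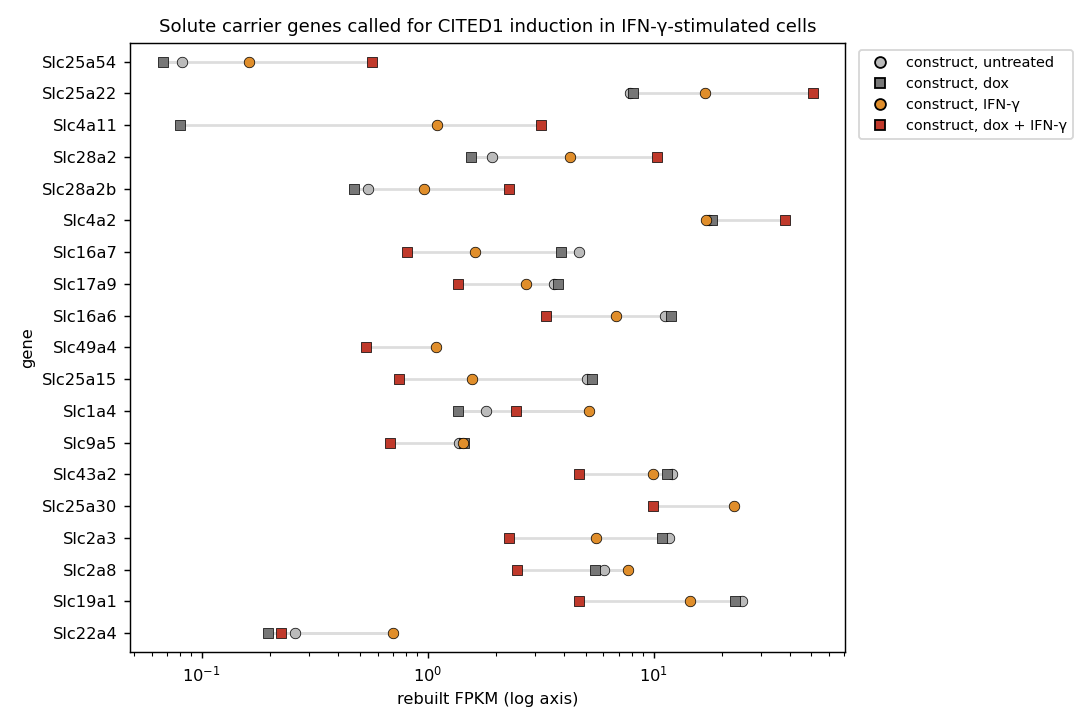
Rebuilt FPKM (log axis) of the 19 members called between construct cells with interferon-gamma and those with interferon-gamma and doxycycline, in the 4 construct groups (circles without, squares with doxycycline; grey unstimulated, orange and red stimulated). The grey symbols of a gene lie close together, while the red and orange symbols are 2-fold to 3.52-fold apart in the authors' deposited table.

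Several genes of related metabolism were also called between the stimulated groups. The list of amino acid stress genes had 0 higher and 2 lower members, Phgdh (44.6 to 17.2 FPKM) and the proline synthesis gene Pycr1 (1.82 to 0.273). The mTORC1 nutrient sensing list of 25 genes, of which 9 are listed, had 0 higher and 2 lower members. These were the arginine sensor gene Castor1 (3.33 to 0.888 FPKM) and Sesn1 (6.38 to 2.32). The mitochondrial list had Idh2 lower (16.7 to 5.85 FPKM). The list linked to Slc15a3 had 4 higher and 0 lower members, Nod1, Nod2, Tlr9 and a minor entry of Tlr7, with Tlr9 at 45.9 and 113 FPKM. No member of the glycolysis, iron, zinc and copper, arginine or glutathione lists was called in this comparison. Only 2, 5, 3, 6 and 4 of their genes, in that order, are listed at all. With 13.2% of all listed genes called, the lack of calls among so few says little.

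Promoters are shown for 3 members because their windows hold a match to a binding element of the interferon pathway and their genes were called in the comparisons above. RefSeq promoter windows (GRCm38.p6, 250 bases before to 50 after a start site) were found by symbol for 88 of the 111 members, with 127 windows. The element marked, searched on both strands, was GAAA followed by any 2 bases and GAAA, the core of the interferon-stimulated response element that interferon regulatory factors bind. The sequences are the 150 bases before the start site, 5′ to 3′ on the strand of the gene, with the match in capitals.
Slc25a22 (chr7:141435376-141435525, minus strand): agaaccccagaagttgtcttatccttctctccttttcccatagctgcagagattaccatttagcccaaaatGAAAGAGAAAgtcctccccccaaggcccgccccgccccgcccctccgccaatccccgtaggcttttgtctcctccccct
Slc37a1 (chr17:31296074-31296223, plus strand): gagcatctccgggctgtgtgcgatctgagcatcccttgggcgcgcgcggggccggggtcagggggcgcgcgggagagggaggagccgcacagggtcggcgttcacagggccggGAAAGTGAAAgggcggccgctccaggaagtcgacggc
Slc25a15 (chr8:22398622-22398771, minus strand): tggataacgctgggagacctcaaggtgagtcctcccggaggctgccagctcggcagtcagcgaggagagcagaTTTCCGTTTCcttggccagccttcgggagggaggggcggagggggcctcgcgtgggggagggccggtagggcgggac

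The match in Slc25a22 begins at position -79 from the start site and that in Slc37a1 at -37, both on the strand of the gene. The Slc25a22 window belongs to the start of entry ENSMUST00000138865. The main entry ENSMUST00000106007 starts 781 bases further along the gene, and its window does not hold the element. In Slc25a15, a gene that fell, the same element lies on the opposite strand from -77. Over all members 3.15% of windows held the element, against 3.44% of all 32851 windows. Among windows of members higher with interferon-gamma without inducer the share was 5.41% (2 of 37, in Slc25a22 and Slc37a1). For lower members it was 3.1% (1 of 32), and counts this small do not set the groups apart. The near copy Slc28a2b also holds the element, from position 27 after the start site, and its window is not printed. Other motifs were searched in the same windows. The E-box CACGTG was in 15% of member windows (19 of 127) against 7.15% of all. Windows of 1 gene can overlap, and for Slc12a7 and Slc25a14 the same E-box was counted in more than 1 window. The AP-1 site TGANTCA was in 4.72% against 7.81% and the amino acid response core TGATGNAA in 2.36% against 3.97%. The nuclear factor kappa B site, GGGA, any base and TTTCC, was in 0.787% against 0.411%. A match is a description of letters in the window and no evidence of binding.

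No member was called for CITED1 induction in unstimulated cells, where 0.204% of listed genes were higher and 0.204% lower (0.407% in all), or for doxycycline in parental cells, where 0.111% were higher and 0.796% lower (0.907% in all). With so few calls among all genes, 0 of 111 members says little. The table gives Cuffdiff's calls only and holds no unadjusted p. Over 94 member entries with both levels the median log2 ratio was -0.03 for doxycycline in construct cells, against 0.00 for all entries. In parental cells, over 97 member entries, it was within 0.01 of 0.

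Between construct and parental cells 7 members were called in at least 1 of the comparisons without and with doxycycline. Without doxycycline 2 were higher (1.80%, against 1.74% of listed genes) and 2 lower (1.80%, against 2.8%), and with doxycycline 1 was higher (0.901%, against 2.41%) and 5 lower (4.50%, against 3.18%). In either direction 4.54% of listed genes were called without and 5.59% with doxycycline. Adding 1 FPKM to each level left a 2-fold difference for 1 higher and 1 lower member without doxycycline, and for 1 higher and 2 lower members with it. These comparisons share no group. Slc16a12, Slc28a2 and Slc7a8 were called in both, each in the same direction. Such repeats were common among all listed genes. Of the calls without doxycycline, 64.9% of the higher and 65.6% of the lower ones recurred with it, so the repeat does not set these members apart.

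Slc16a12, a creatine carrier of the monocarboxylate family, was at 0.237 and 0.280 FPKM in parental cells, 2.08 and 2.06 in unstimulated construct cells, 0.274 with interferon-gamma and 0.130 with both treatments. It was thus high only in unstimulated construct cells among the 6 groups. Slc7a8 was at 25.8 and 30.7 FPKM in parental cells, 11.6 and 11.5 in unstimulated construct cells and 35.5 with both treatments, and it has no level for interferon-gamma alone. Slc8a1, the plasma membrane sodium-calcium exchanger, was at 1.18 and 1.20 FPKM in parental and 0.594 and 0.529 in unstimulated construct cells, and at 1.20 and 1.54 in the stimulated groups. For Slc7a8, Slc8a1 and Slc28a2 the parental levels therefore lay above those of unstimulated construct cells and the levels with both treatments above the parental ones.

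The phosphate importer gene Slc20a1 was at 59.2 and 57.9 FPKM in parental cells and 27.8 in construct cells with doxycycline. The creatine transporter Slc6a8 was called only for its entry ENSMUST00000164449, at 8.69 and 3.90 FPKM, while its main entry was at 21.2 FPKM in parental and 13.7 in construct cells with doxycycline, without a row. Slc24a3, called without doxycycline, was under 1 FPKM in both of its groups. Between untreated parental and untreated construct cells the macrophage markers differed in how they moved, with Adgre1 at 28.6 and 12.2 FPKM, Fcgr1 at 17.8 and 14.1, and Spi1 at 157 and 153, while Itgam has no parental level. Of 7 osteoclast markers 5 are listed. In the same groups Acp5 was at 0.427 and 2.43 FPKM, Nfatc1 at 1.60 and 8.48, Dcstamp at 10.3 and 20.8 and Ctsk at 3.43 and 3.19. Itgb3 was at 0.0758 FPKM in parental and 0.559 in construct cells with doxycycline. Their part in the solute carrier differences was not tested.

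**Figure D5:**
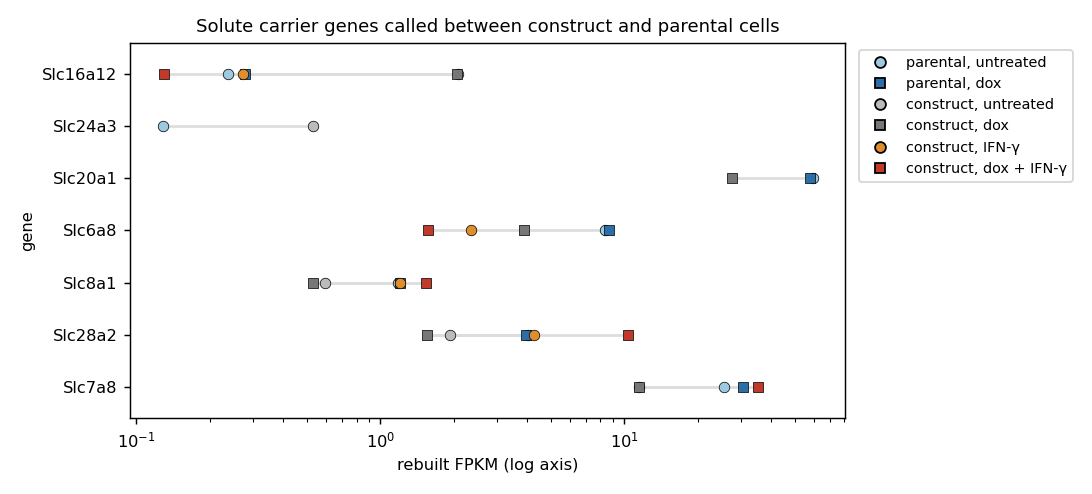
Rebuilt FPKM (log axis) in the 6 groups for the 7 members called between construct and parental cells, blue for parental, grey for unstimulated construct and orange or red for stimulated construct cells. Slc16a12 is near 2 FPKM in both grey groups and under 0.3 FPKM in the others, and Slc7a8, Slc28a2 and Slc8a1 have their lowest levels in the grey groups.

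Entries of 1 gene did not always move alike. Slc38a1 had entries in both directions in cells with induced CITED1: ENSMUST00000088452 went from 19.5 to 7.78 FPKM and ENSMUST00000088454 from 12.1 to 4.28, while ENSMUST00000100262 went from 5.37 to 11.5. With interferon-gamma alone the last of these was at 12.3 FPKM. All 3 are annotated as protein coding. Slc43a2 (LAT4), a carrier of large neutral amino acids, fell in entry ENSMUST00000042561 from 9.73 to 1.93 FPKM with interferon-gamma alone, whereas ENSMUST00000108433 was at 12.1 and 9.91 FPKM there, without a row, and at 4.67 with both treatments. The division of reads between transcripts of 1 gene is an estimate by the authors' software, and its error is not given per entry. Of the 147 entries 126 are annotated as protein coding, 9 as targets of nonsense-mediated decay, 7 as retained introns and 3 as processed transcripts.

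The 18 members without a row in the 7 comparisons were Slc12a2, Slc16a10, Slc16a13, Slc1a5, Slc25a10, Slc25a16, Slc25a51, Slc27a3, Slc30a5, Slc35c2, Slc35d1, Slc37a3, Slc38a7, Slc39a1-ps, Slc46a3, Slc6a9, Slc7a1 and Slc7a4. Their pairs differ in line and treatment, or in both treatments, so no single factor can be assigned. The mitochondrial dicarboxylate carrier gene Slc25a10 was at 39 and 37.5 FPKM in parental cells and 18.6 in construct cells with interferon-gamma. Slc12a2 (NKCC1), a sodium-potassium-chloride cotransporter, was at 8.76 and 8.71 FPKM in parental cells and 4 with both treatments.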

How the data were processed

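Poly(A)-selected, strand-specific libraries were made from 18 samples in 6 groups, per the labels' protocols. Cuffdiff 2.2.1 and STAR 2.5.3a are among the tools in the submitters' processing notes, as are edgeR, featureCounts and FastQC 0.11.5, with no roles stated. For the genome build nothing is given in the sources used here. A deposited table of pairwise comparisons holds, per the file headers, a linear fold or ratio, the FPKM of the pair as 1 total, and a q-value the authors adjusted for multiple tests. Of its 112230 rows, 77406 name groups outside the 6 and were not used. Values per sample are not in the table, so the calls are the authors' and the foreseen tests were not run.

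The lower level was rebuilt as total/(1 + fold), the higher as that times the fold, and levels from several comparisons were reduced to their median. The 343 repeated member levels of at least 1 FPKM differed by at most 0.445%. A gene counts as higher or lower only when its called entries all share that direction, and the called entry with the largest total supplies its value. Entries with several names (3 with a solute carrier) or none were left out. Background percentages are over the 5401 listed genes. Of the 145 transcript identifiers, all 145 are in GENCODE M21 and 141 carry the same symbol there; 29 members overlap an exon of another gene. Called members that reached 1 FPKM in either group could be named, with values for up to 8 per class, direction and comparison, and all called for CITED1 or construct. Members, classes, lists and motifs were chosen with earlier results of these data known. Of 6 promoter motifs searched, 1 is not reported here. The rebuilding and counting were tested on simulated data. Python 3.11.15, pandas 2.3.3 and matplotlib 3.10.9 were used.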

Additional observations from a re-analysis of the deposited data

How the results depend on the processing

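Shifting log2 ratios to a median of 0 left 7 members higher with interferon-gamma without inducer and 16 with induced CITED1. The median was that of listed entries, all picked for a 2-fold difference in some pair. It is therefore no measure of an offset, and the lost calls do not show one. Since only listed rows were shifted, higher rows could only be lost in these comparisons. With a pseudocount of 1 FPKM, CITED1 induction in stimulated cells kept 3 higher members (Slc25a22, Slc28a2 and Slc4a2) and 3 lower ones (Slc19a1, Slc2a8 and Slc25a30). The same pseudocount left 1 higher and 1 lower member between construct and parental cells without doxycycline and 2 lower members with it. At a q of 0.01 or less 8 of the lower members remained for CITED1 induction in stimulated cells, without Slc16a6, Slc16a7, Slc22a4, Slc43a2 and Slc9a5. A minimum of 1 FPKM left 1 higher member, Slc16a12, between the untreated lines. Other counts, including those by entry or by transcript identifiers only, stayed within 1.5 times. No paired analysis was possible because the table has no values per sample, and leaving out replicates was not run for the same reason. Depth is unknown, and low levels are the least certain.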
